A study of Mus musculus with 12 samples.

Results

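The 10 immediate early genes Fos, Fosb, Jun, Junb, Egr1, Egr2, Ier2, Arc, Atf3 and Dusp1 were followed in bulk RNA-seq of the mouse embryonic cortex in 3 Med13l genotypes. They were chosen by name from a list of immediate early genes, matched by gene symbol to the Ensembl IDs of the count table, and all 10 were found among its 55335 genes. No member reached the threshold for a difference between genotypes. Of the 10 genes, 9 passed the filter on low counts, and Egr2 had too few reads to be tested. The cortex was dissected at E13.5 from genotyped embryos of matings between Med13l heterozygous mice. The wild-type group (WT), the heterozygous group (Het) and the homozygous Med13l-null group (KO) had 3 libraries each. The labels name no treatment and do not describe the null allele, the strain or the sex of the embryos. Single-cell samples of the same genotypes were not analysed here.

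Immediate early genes are transcribed within minutes of a stimulus and need no new protein synthesis for it. Growth factors, calcium entry and stress reach them through MAP kinases, which act on the serum response factor and its ETS-domain partners and on CREB. Most of their products are transcription factors that pass the signal on to later genes. MED13L belongs to the kinase module of Mediator, with CDK8 or CDK19 as its kinase, and in human cell lines CDK8 is known to take part in transcription of serum response genes. Immediate early genes are also known to be induced by the handling and dissociation of tissue.

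Among the 10 genes, Fos and Fosb encode Fos-family and Jun and Junb Jun-family subunits of the AP-1 transcription factor. Atf3 encodes a stress-induced basic leucine zipper factor that can pair with Jun proteins. Egr1 and Egr2 encode zinc finger factors, and Egr2 is also known for its roles in the hindbrain and in Schwann cells. Ier2 encodes a small nuclear protein induced by growth factors. Arc encodes a protein of active synapses that takes part in the removal of AMPA receptors, and Dusp1 encodes a phosphatase that inactivates MAP kinases.

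RefSeq promoter windows on GRCm38.p6 were at hand for 7 of the 10 genes, and those of Egr1, Ier2 and Arc were not used here. Stretches of these 7 are shown. All but that of Jun hold letters that signal-responsive factors are known to bind. These are TGACG and TGACGTCA for CREB and ATF proteins and the CArG box for the serum response factor. The stretch of Jun holds none of these and is marked at TGANNTCA, a looser form of TGACGTCA. Each stretch is written in the direction of its gene, and capitals mark the match.
Fos, chr12:85473790-85473889, plus strand, TGACG: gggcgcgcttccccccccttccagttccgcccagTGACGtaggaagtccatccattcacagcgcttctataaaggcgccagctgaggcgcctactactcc
Fosb, chr7:19310046-19310145, minus strand, TGACG: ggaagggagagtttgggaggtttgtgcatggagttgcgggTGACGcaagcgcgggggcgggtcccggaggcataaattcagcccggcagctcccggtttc
Jun, chr4:95052223-95052322, minus strand, TGANNTCA: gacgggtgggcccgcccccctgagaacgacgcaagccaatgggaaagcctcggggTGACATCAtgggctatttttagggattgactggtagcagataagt
Junb, chr8:84978749-84978898, minus strand, TGACG: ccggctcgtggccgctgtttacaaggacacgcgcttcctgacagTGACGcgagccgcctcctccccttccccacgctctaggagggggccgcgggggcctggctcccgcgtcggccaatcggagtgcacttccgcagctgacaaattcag
Egr2, chr10:67537769-67537868, plus strand, CArG box and TGACG read on the other strand: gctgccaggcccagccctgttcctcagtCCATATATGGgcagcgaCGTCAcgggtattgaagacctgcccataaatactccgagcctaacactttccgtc
Atf3, chr1:191183334-191183433, minus strand, TGACG read on the other strand: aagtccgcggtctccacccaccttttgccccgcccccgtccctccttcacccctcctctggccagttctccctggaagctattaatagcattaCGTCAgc
Dusp1, chr17:26508520-26508697, minus strand, TGACG and TGACGTCA: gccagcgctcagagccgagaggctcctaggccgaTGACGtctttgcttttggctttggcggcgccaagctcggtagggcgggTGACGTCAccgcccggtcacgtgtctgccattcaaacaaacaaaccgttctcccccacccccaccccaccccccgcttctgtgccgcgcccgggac

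On either strand, TGACG stood within 250 bases before a transcript start in 6 of the 7 genes, all but Jun. The same letters stood in 17.8% of all 32851 windows of that length and in 19.8% of the 27025 genes with a window. The full palindrome TGACGTCA, which contains TGACG on both strands, was found in Dusp1 alone of the 7, at -143 from the start, and in 1.55% of all windows. The looser form TGANNTCA matched in Jun, as TGACATCA at -45, and in Dusp1, at the same place as the palindrome, with a background of 11.9%. A CArG box was found in Egr2 alone of the 7 and in 1.47% of windows; the match shown reads CCATATATGG, and the window of another Egr2 start held CCTTTTTTGG at -72. The serum response element known upstream of Fos lies farther out than these windows reach. TATAAA was found in Fos alone of the 7, at -33, against 12.4% of windows and 14.3% of genes. The AP-1 letters TGANTCA were found in 0 of the 7, against 6.75% of windows and 7.82% of genes. A match describes the sequence and does not show that a factor binds there.

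The libraries held between 37909377 and 52992392 counts, so that 3 counts corresponded to between 0.0566 and 0.0799 CPM. CPM are counts relative to the library total, scaled by TMM library factors, and are compared between libraries for the same gene. Of the 55335 genes, 18844 were tested, with a shared biological coefficient of variation of 28.2%. Med13l itself had between 116 and 163 CPM and was not lower in the KO libraries. The null allele is not described, and reads summed over the full gene need not show one, so this checks no label. Embryonic cortex markers were all detected, and their sum lay between 2266 and 3603 CPM. Het 1 stood apart, with 1565 CPM of summed thalamus markers against 464 to 570 CPM in the other 8 libraries, and with the lowest cortex sum. Most of the thalamus sum in the other 8 came from Lhx2 alone, at 330 to 449 CPM, which was lowest in Het 1, at 259 CPM. The other 7 thalamus markers were all highest in Het 1. Among them, Shox2 had 140 CPM in Het 1 and at most 5.41 CPM elsewhere. KO 1 and KO 2 stood apart as well, with 2530 and 2270 CPM of summed meningeal markers against 707 to 1335 CPM elsewhere. Their cortex sums were 2463 and 2596 CPM, against 3264 to 3603 CPM in the libraries other than these and Het 1. KO 2 also had a raised thalamus score, 1.17 as a mean log2 difference from the 9 libraries, against 2.95 in Het 1 and at most 0.01 elsewhere. In bulk tissue, fewer cells of a type and less RNA per cell cannot be told apart.

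Levels of the 10 genes differed widely. They are compared as TPM, in which counts are divided by exon length before scaling to the library. Jun was highest, at 110 ± 22.5 TPM (SD over the 9 libraries), above 91.5% of the tested genes. Ier2 had 42.5 ± 7.13 TPM and Dusp1 22.5 ± 2.35 TPM. The ranges of Jun (58.7 to 137 TPM), Ier2 (32.5 to 53.4 TPM) and Dusp1 (17.1 to 25.0 TPM) did not overlap, so the order of these 3 held in every library. Egr1 (6.27 ± 3.32 TPM), Arc (5.45 ± 1.69 TPM) and Junb (3.45 ± 0.993 TPM) came next and overlapped in their ranges. Atf3 (1.67 ± 0.483 TPM) and Fos (1.43 ± 0.457 TPM) lay above only 18.3% and 16.4% of the tested genes, and they too overlapped. Fosb (0.159 ± 0.104 TPM) and Egr2 (0.126 ± 0.115 TPM) overlapped with each other and lay below every value of Fos. The most abundant AP-1 subunit transcript among the members was thus Jun, while its known partner Fos was among the low ones. This order holds for the members only. Outside them, the Jun-family gene Jund had 118 TPM and the Fos-family gene Fosl2 4.10 TPM on average.

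**Figure D1:**
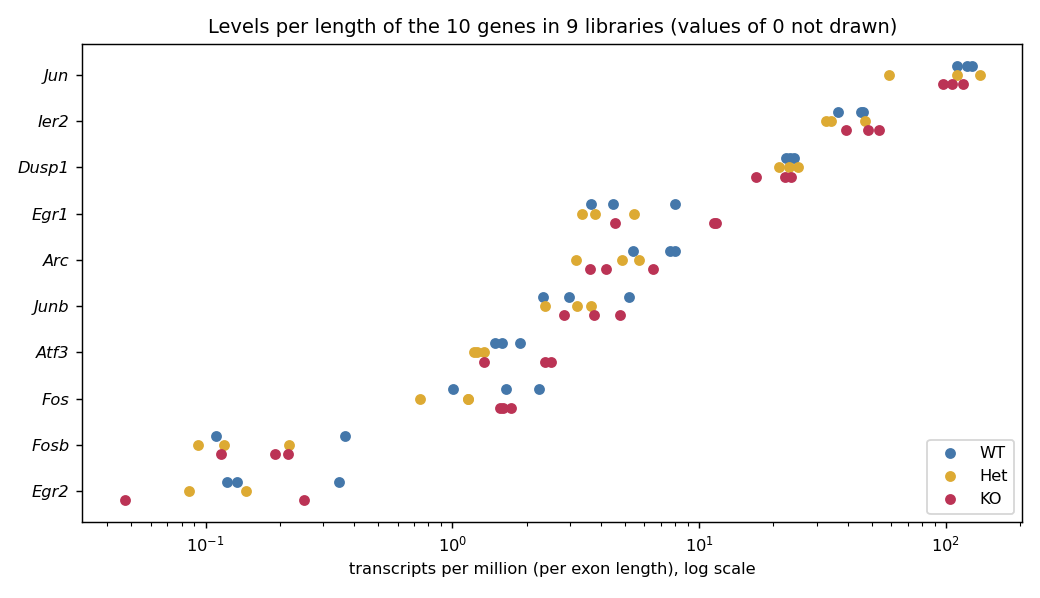
Level of each gene per exon length in the 9 libraries, in TPM on a log axis, with each point a library coloured by genotype and values of 0 not drawn. Jun, between 58.7 and 137 TPM, lies above all the others, and Fosb and Egr2 lie at the bottom with no point above 0.369 TPM.

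The first question was whether loss of both Med13l alleles was accompanied by a different level of any immediate early gene. In KO against WT, 0 of the 9 tested members were called at an adjusted p under 0.05, with 0.00531% of all tested genes called (1 gene, the predicted gene Gm15446). At an unadjusted p under 0.05 there were 0 members, against 5.72% of all tested genes. KO and WT libraries overlapped in all 9 members, while they did not overlap in 15% of all tested genes. The median log2 fold change of the 9 members was 0.08, with 5 above and 4 below 0, and that of all tested genes 0.0007.

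Egr1 had the largest log2 fold change of the tested members between KO and WT. It had 5.46, 9.68 and 4.79 CPM in WT 1, 2 and 3, 6.74, 4.19 and 4.66 CPM in Het 1, 2 and 3, and 14.6, 13.9 and 5.63 CPM in KO 1, 2 and 3. KO 1 and KO 2 were higher than every other library, while KO 3 lay inside the WT range. Means were 11.4 ± 4.98 CPM for KO and 6.65 ± 2.65 CPM for WT (SD, n = 3). Its log2 fold change came to 0.77, with an SE of 0.40 and a 95% interval of -0.15 to 1.69 (edgeR adjusted p = 0.867). The interval includes both no difference and a KO level far above that of WT. The 2 high libraries carry the letter D in their description label, and within that letter the difference was 0.96 on the log2 scale, against 0.23 for the single pair of letter F.

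KO 1 and KO 2 were also the libraries with the most transcripts of non-neural cells. The 12 meningeal markers summed to 2530 and 2270 CPM in KO 1 and KO 2 and 1154 CPM in KO 3, against 707 to 1335 CPM in WT and 768 to 1071 CPM in Het. The 12 endothelial and mural markers summed to 857 and 735 CPM in KO 1 and KO 2 and 457 CPM in KO 3, against 355 to 599 CPM in WT. The 12 microglia and macrophage markers summed to 159, 145 and 82.6 CPM in KO 1, 2 and 3, against 68.4 to 107 CPM in WT, and the erythroid markers to 4235, 4646 and 3114 CPM, against 2117 to 3032 CPM. None of these markers was at 0 in any library. Highest in KO 1 were 10 of 12 meningeal, 11 of 12 endothelial and mural and 10 of 12 microglia and macrophage markers. Of the microglia and macrophage markers, 2 were lower in KO than in WT on average. Among these, P2ry12 had 3.21, 2.75 and 2.74 CPM in KO 1, 2 and 3, against 3.16 to 4.38 CPM in WT. All 4 lists thus had their highest sums in the 2 libraries in which Egr1 and Atf3 were highest. Their part in the Egr1 and Atf3 values was not tested.

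**Figure D2:**
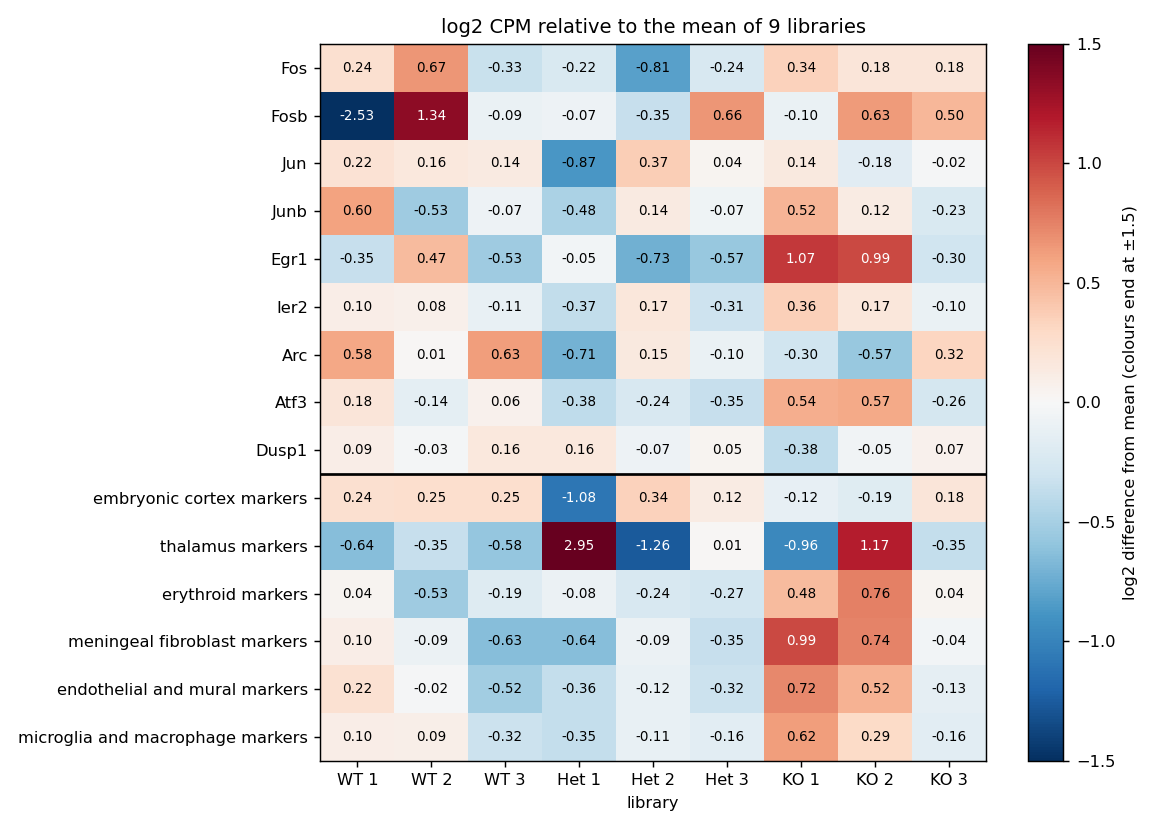
Log2 CPM of the 9 tested members and the mean log2 CPM of 6 marker lists in each library, relative to the mean of the 9 libraries. In KO 1 and KO 2, Egr1 stands at 1.07 and 0.99 and the meningeal list at 0.99 and 0.74, and in Het 1 Jun stands at -0.87 and the thalamus list at 2.95.

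Atf3 repeated the arrangement of Egr1 at a lower level. It had 1.10, 0.868 and 1.01 CPM in WT, 0.731, 0.810 and 0.746 CPM in Het, and 1.43, 1.46 and 0.797 CPM in KO. KO 1 and KO 2 were again above every other library, and KO 3 was below every WT library. These values rest on 28 to 64 reads per library. In KO against WT the log2 fold change of Atf3 was 0.30 (SE 0.29, edgeR adjusted p = 0.908), and it was 0.54 within letter D and -0.32 within letter F.

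Arc, the synaptic member, lay lower in KO on average. It had 6.60, 4.46 and 6.85 CPM in WT, 2.67, 4.88 and 4.10 CPM in Het, and 3.56, 2.96 and 5.51 CPM in KO. WT 1 and WT 3 were above all other libraries, and WT 2 lay among the Het and KO values. KO differed from WT by -0.57 on the log2 scale, with an SE of 0.32 and a 95% interval of -1.29 to 0.15 (edgeR adjusted p = 0.870). It was -0.73 within letter D and -0.31 within letter F.

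Of the AP-1 genes, Jun was lower in KO than in WT on average, with the groups overlapping. It had 110, 106 and 104 CPM in WT 1, 2 and 3 and 104, 83.8 and 93.4 CPM in KO 1, 2 and 3, against 51.7, 122 and 97.1 CPM in Het 1, 2 and 3. The 3 WT libraries lay close together, and the Het libraries held both the lowest and the highest value. The log2 fold change in KO against WT was -0.18 (SE 0.26, edgeR adjusted p = 0.935). The antisense gene Junos overlaps Jun with 0.479 to 1.53 CPM, and whether counting used strand was not given in the sources used here.

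Fos had 1.06, 1.43 and 0.694 CPM in WT, 0.753, 0.486 and 0.746 CPM in Het, and 1.14, 1.01 and 1.01 CPM in KO. WT held a wide range that enclosed all 3 KO libraries, and the Het libraries were at the low end. Between 21 and 76 reads stood behind each value. The KO and WT means were 1.05 ± 0.0720 and 1.06 ± 0.370 CPM (SD, n = 3), with a log2 fold change of -0.01 (SE 0.33, 95% interval -0.76 to 0.73, edgeR adjusted p = 0.999).

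Junb had 3.23, 1.45 and 2.02 CPM in WT, 1.51, 2.34 and 2.02 CPM in Het, and 3.05, 2.31 and 1.81 CPM in KO. The groups overlapped broadly, and WT held both the lowest and the highest library. Its log2 fold change in KO against WT was 0.10 (SE 0.35, edgeR adjusted p = 0.983). Junb overlaps Prdx2, a peroxiredoxin gene on the opposite strand with 412 to 471 CPM, so that without strand a small share of Prdx2 reads could weigh on the Junb counts.

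Fosb was near the limit of detection. WT 1 had 0 reads of Fosb, which allows up to 0.0674 CPM, while WT 2 had 33 reads and WT 3 had 9. The Het libraries had 9, 7 and 14 reads and the KO libraries 9, 14 and 14. WT thus held both the lowest and the highest library, and the 95% interval of the KO against WT log2 fold change ran from -2.10 to 2.27. For Egr2 the summed reads were 28 in WT, 9 in Het and 12 in KO, with 17 of the WT reads in WT 2 and 0 reads in Het 2 and KO 2. Egr2 was not tested for a difference at this depth.

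Ier2 and Dusp1 were the steadiest of the members. Ier2 had 19.0, 18.7 and 16.4 CPM in WT, 13.7, 19.9 and 14.3 CPM in Het, and 22.6, 19.9 and 16.5 CPM in KO. Dusp1 had 21.9, 20.1 and 22.8 CPM in WT, 22.9, 19.5 and 21.1 CPM in Het, and 15.7, 19.8 and 21.5 CPM in KO. KO 1 had the highest Ier2 and the lowest Dusp1 of the 9 libraries. KO against WT gave a log2 fold change of 0.13 (SE 0.18, 95% interval -0.27 to 0.52) for Ier2 and -0.19 (SE 0.13, 95% interval -0.49 to 0.12) for Dusp1, with an edgeR adjusted p of 0.937 and 0.893. These are the narrowest intervals among the members. Dusp1 shares its annotated span with Ergic1 on the opposite strand, at 155 to 177 CPM.

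**Figure D3:**
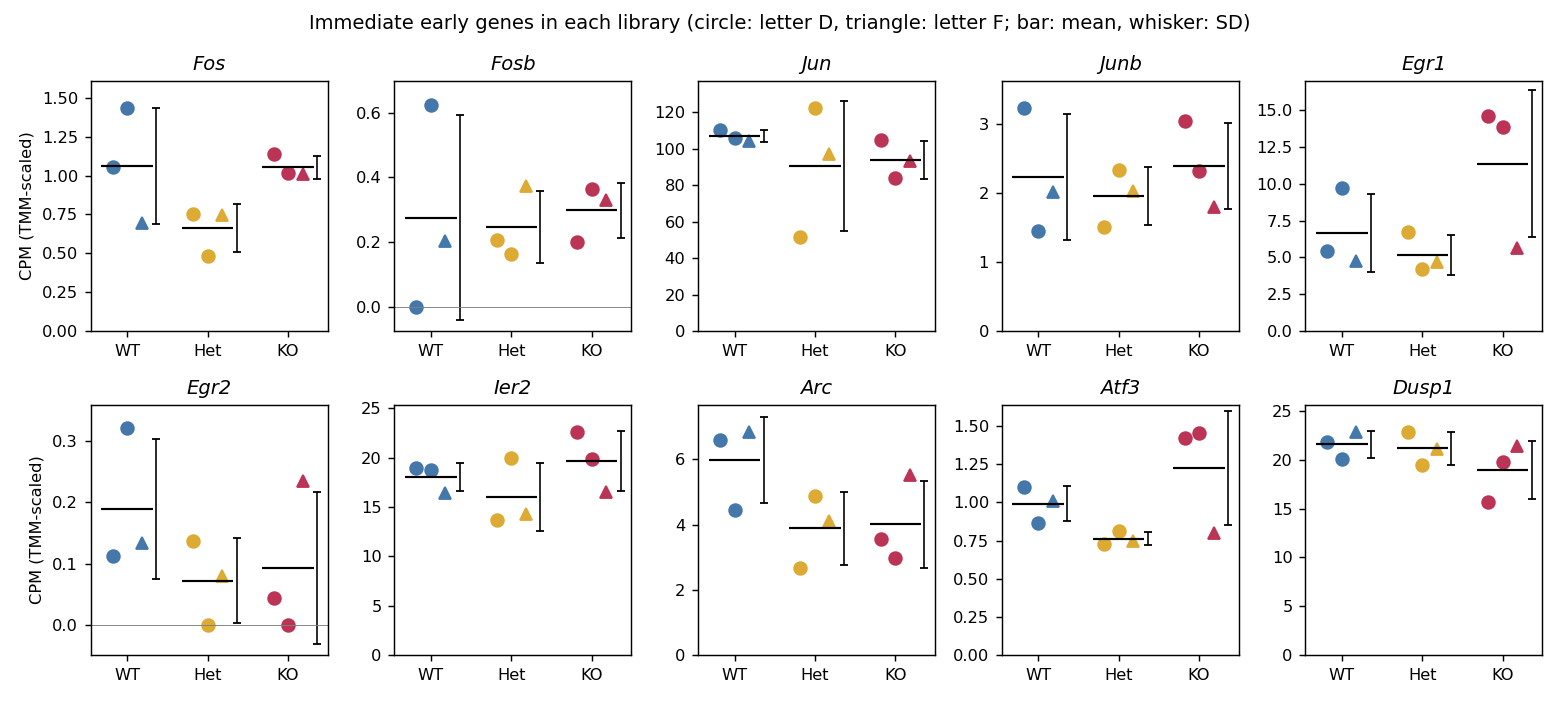
CPM of the 10 genes in each library, with circles for the description letter D and triangles for F, a bar at the mean and a whisker of 1 SD on either side (n = 3 per genotype). Egr1 and Atf3 show 2 high KO libraries with KO 3 inside or below the WT range, and Jun shows 1 low Het library at 51.7 CPM.

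The second question was whether the loss of a single Med13l allele was accompanied by a difference. In Het against WT, 0 of 9 members were called, with 0% of all tested genes called. An unadjusted p under 0.05 was reached by 0 of 9 members and by 1.56% of all tested genes. All 9 members had a negative log2 fold change, with a median of -0.24, while 50.5% of all tested genes were positive and their median was 0.002. The same WT libraries entered every one of these values, and the members were counted in the same 6 libraries, so the 9 signs are not separate observations. Some other lists leaned the same way. Negative values were found for 12 of 12 endothelial and mural markers (median -0.18) and 12 of 12 microglia and macrophage markers (median -0.18). So were 11 of 12 meningeal markers (median -0.22) and 10 of 12 embryonic cortex markers (median -0.32). Of the feedback inhibitors of MAP kinase signalling, 12 of 15 were negative (median -0.14). Mostly positive were thalamus (7 of 8), erythroid (7 of 10 tested), heat shock (9 of 12) and Mediator kinase module genes (5 of 7). The part of these lists in the member values was not tested. Fos had the lowest value at -0.68 (SE 0.33, 95% interval -1.44 to 0.08), followed by Arc at -0.62 (SE 0.32) and Atf3 at -0.38 (SE 0.30), each with an edgeR adjusted p of 0.999. The Fos difference was -0.97 within letter D and 0.10 for the single pair of letter F. Within D and F, Arc stood at -0.58 and -0.73, and Atf3 at -0.33 and -0.41. For Atf3 every Het library was below every WT library, which makes 1 of 9 members without overlap, against 5.18% of all tested genes.

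Het 1, the library with the thalamus markers, was the lowest of the 9 libraries for Jun, Ier2, Arc and Atf3. Without it, 8 of 9 members were still negative, but the median moved to -0.09, and Jun stood at 0.04. Without WT 2, which had the highest Fos and Fosb, 7 of 9 were negative and Fos stood at -0.40. With the lowest Het library of Fos, Het 2, left out, 7 of 9 were negative with a median of -0.37. In Het 1 the thalamus marker Tcf7l2 stood at 657 CPM, against 63.3 CPM in KO 2 and 14.3 to 22.4 CPM in the other libraries. The part of this difference in tissue in the Het values was not tested.

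KO against Het compared the mutant genotypes directly. Here too 0 of 9 members were called, with 0.00531% of all tested genes called, again Gm15446 alone. Egr1 had a log2 fold change of 1.13 (SE 0.41, 95% interval 0.20 to 2.06, unadjusted p = 0.0227 and edgeR adjusted p = 0.607). Atf3 had 0.68 (SE 0.30, 95% interval 0.01 to 1.36, unadjusted p = 0.0485 and edgeR adjusted p = 0.607). These are 2 of 9 members at an unadjusted p under 0.05, against 7.74% of all tested genes, and KO 3 lay inside the Het range for both genes. Within letter F the differences were 0.27 for Egr1 and 0.09 for Atf3, against 1.41 and 0.87 within letter D. Fos, at 0.67 (SE 0.34, edgeR adjusted p = 0.607), was the member whose KO libraries all lay above all Het libraries, which makes 1 of 9 against 11.1% of all tested genes. In all, 8 of 9 members were positive with a median of 0.29, all but Dusp1 at -0.16. Non-neural markers had the same sign, with 12 of 12 meningeal (median 0.92), 12 of 12 endothelial and mural (median 0.72), 10 of 10 tested erythroid (median 0.51) and 10 of 12 microglia and macrophage markers (median 0.62) positive, and their part was not tested. Without Het 1 this became 6 of 9 with a median of 0.15, and without KO 1 it became 7 of 9 with a median of 0.18.

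**Figure D4:**
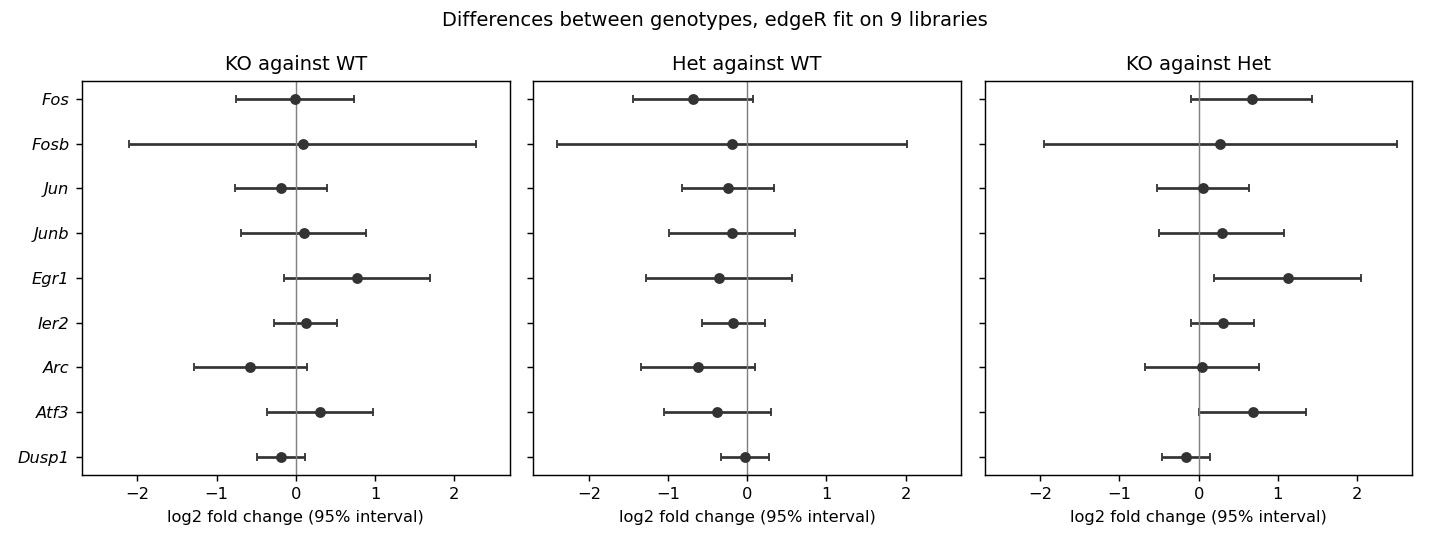
Log2 fold changes of the 9 tested members with 95% intervals from the edgeR fit on all 9 libraries, in KO against WT, Het against WT and KO against Het, with a vertical line at 0. The intervals of Egr1 (0.20 to 2.06) and Atf3 (0.01 to 1.36) in KO against Het leave out 0 before adjustment for the number of genes tested, and all other intervals include it.

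The description letter, of which each genotype has 2 libraries of D and 1 of F, was tested with genotype in the model. The labels do not say what the letter stands for. Of the 9 members 0 were called, with 0.0371% of all tested genes called, and all 9 overlapped between the letters, while 3.36% of all tested genes did not. Among the members 1 reached an unadjusted p under 0.05, against 6.13% of all tested genes. That member was Egr1, with 9.09 CPM on average in the 6 libraries of D and 5.03 CPM in the 3 of F and a log2 fold change of -0.72 (SE 0.29, edgeR adjusted p = 0.772). In the same comparison 12 of 12 endothelial and mural markers (median -0.52) and 11 of 12 meningeal markers (median -0.60) were lower in F, 10 and 7 of them at an unadjusted p under 0.05, and their part in the Egr1 value was not tested. Arc stood at 0.40 (SE 0.25) and Ier2 at -0.27 (SE 0.13), with an edgeR adjusted p of 0.965 and 0.888.

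Libraries of the same genotype differed more in Jun, Fosb and Egr1 than is usual for genes of their level. The SD of log2 CPM within genotypes was 0.38 for Jun, larger than in 94% of the 2194 tested genes within 0.5 log2 units of its mean. For Fosb it was 1.19 (87.2% of genes at that level) and for Egr1 0.58 (86%). Arc (0.42, 64.4%), Ier2 (0.23, 58.3%) and Junb (0.43, 54.8%) were near the middle for their level. Dusp1 (0.16, 39.9%), Fos (0.35, 22.1%) and Atf3 (0.29, 12.2%) were below it. In Jun the spread came mostly from Het 1 and Het 2, at 51.7 and 122 CPM.

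Across the libraries, members were about as often opposed as alike. Of the 36 pairs of tested members, 19 had a positive and 17 a negative correlation of log2 CPM over the 9 libraries, with a median Pearson r of 0.05. An unadjusted p under 0.05 was reached by 7 pairs in an exact two-sided permutation test, and 0 pairs passed Benjamini-Hochberg adjustment over the 36, the lowest adjusted p being 0.209. The libraries share dissection, RNA handling and depth within each sample.

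Ier2 and Dusp1 were opposed, with r = -0.78 and Spearman's rho = -0.83 (exact permutation p = 0.00759 and 0.00827, adjusted p = 0.209 and 0.249), and r was -0.89 without Het 1 and Het 3, the libraries farthest from the median of Ier2. Fos and Egr1 went together, with r = 0.68 and rho = 0.80 (exact permutation p = 0.0437 and 0.0138, adjusted p = 0.228 and 0.249), and r = 0.53 without WT 3 and Het 2. With the AP-1 gene Jun, Fos had r = 0.01 and rho = 0.07 (exact permutation p = 0.982 and 0.880, adjusted p = 0.982 and 0.960), and r = 0.62 without WT 3 and Het 2. Egr1 and Atf3 had r = 0.73 and rho = 0.48 (exact permutation p = 0.0291 and 0.194, adjusted p = 0.209 and 0.546), but r = -0.05 without KO 1 and KO 2, so that this relation rests on those libraries. Likewise Jun and Arc had r = 0.69 and rho = 0.55 (exact permutation p = 0.0202 and 0.133, adjusted p = 0.209 and 0.531), and r = 0.10 without Het 1 and KO 2. With each genotype's mean subtracted, 31 of the 36 pairs kept their sign.

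**Figure D5:**
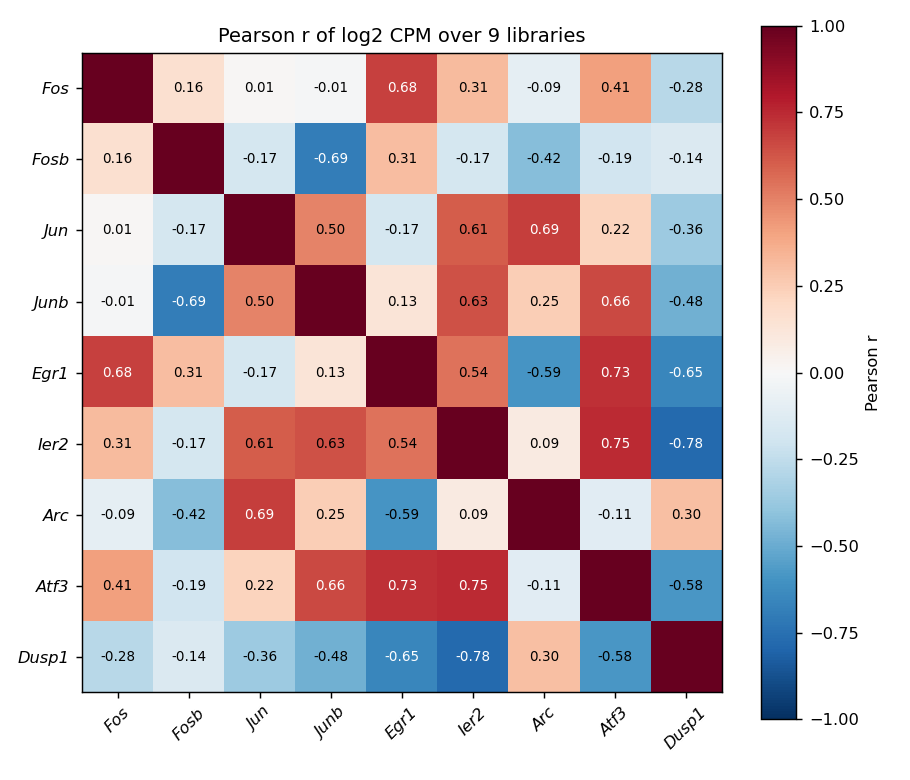
Pearson r of log2 CPM over the 9 libraries for each pair of the 9 tested members, from -1 in blue to 1 in red. Positive and negative pairs are about equally common, with Ier2 and Dusp1 at -0.78 and Ier2 and Atf3 at 0.75 at the ends.

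Among the 15283 tested genes outside the list with a mean of at least 1 CPM, the gene most like Fos by Pearson r over the 9 libraries was Paqr8, at r = 0.93, with 29.8 to 47.8 CPM. It was followed by Sec61a2 (r = 0.90), Hoga1 (r = 0.90), Cd180 (r = 0.88), BC037032 (r = 0.86) and Klhl9 (r = 0.85). The gene ENSMUSG00000118458, with no symbol in the annotation, and Gm6505 had r = 0.84 each. None of the 8 is one of the related immediate early genes listed for this purpose. With so many genes and 9 libraries, these values describe the libraries and carry no test.

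The wider pathway was read from lists of related genes. Of 40 further immediate early genes 38 were tested, and Fosl1 and Egr4 had 0 reads in every library. In KO against WT 0 were called, 23 were positive and 15 negative, and the median log2 fold change was 0.02. Ccn2, a matricellular growth factor gene, averaged 4.57 ± 0.765 CPM over the WT and 7.40 ± 1.52 CPM over the KO libraries (SD, n = 3). The nuclear receptor gene Nr4a3 went the other way, with means of 22.9 ± 2.56 CPM for WT and 11.6 ± 1.27 CPM for KO, and 11.7, 32.4 and 13.9 CPM in Het 1, 2 and 3. Neither passed the test (edgeR adjusted p = 0.858 each). In Het against WT 0 of the 38 were called, with 21 positive and a median of 0.02, while the feedback inhibitors described next had 12 of 15 negative.

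Feedback inhibitors of MAP kinase signalling, the pathway that drives most of the members, were 15 genes, all tested. In KO against WT 0 were called and 11 were positive, and in KO against Het 0 were called and 13 were positive. Spry4, which restrains growth factor receptor signalling, had 6.20, 5.46 and 5.20 CPM in WT, 4.22, 4.84 and 4.71 CPM in Het, and 11.9, 9.95 and 8.21 CPM in KO. All 3 KO libraries were above the other 6. Spry4 was named for the smallest unadjusted p of this list, so some separation of the groups came with the choice. KO did not overlap with WT in 15% of all tested genes, and did not overlap with Het in 11.1%. The log2 fold change of Spry4 in KO against WT was 0.84 (SE 0.18, edgeR adjusted p = 0.858). The ERK phosphatase gene Dusp6 stood at 23.9, 23.4 and 16.5 CPM in WT 1, 2 and 3, and at 43.2, 34.4 and 25.7 CPM in KO 1, 2 and 3, with a log2 fold change of 0.69 (SE 0.22, edgeR adjusted p = 0.858). For both genes the highest libraries were KO 1 and KO 2, those with the most meningeal and endothelial transcripts, and the part of those transcripts was not tested.

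Upstream of the members, the 24 genes of the serum response factor, CREB and MAP kinase routes were evenly split in KO against WT, with 12 positive, 12 negative and 0 called. The ETS-domain gene Elk3, which vascular cells are known to express, stood at 33.4, 30.8 and 19.8 CPM in WT 1, 2 and 3, and at 53.8, 36.7 and 30.1 CPM in KO 1, 2 and 3 (edgeR adjusted p = 0.858). The 7 genes of the Mediator kinase module lay between -0.11 and 0.17 in log2 fold change, with 0 called. Among 12 heat shock genes, a group also induced by stress, 0 were called and 10 were positive, with a median of 0.11. Bag3, a co-chaperone gene of that list, averaged 4.88 ± 0.563 CPM for WT and 7.30 ± 0.750 CPM for KO (SD, n = 3, edgeR adjusted p = 0.858).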

How the data were processed

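The authors deposited whole-number read counts per Ensembl gene for 9 bulk libraries of total RNA. Per the submitters' processing notes, the build was mm10 and the tools for bulk and single-cell samples included StringTie 2.2.1, STAR 25.2b and FastQC 0.11.9; which of them made the counts, and with which strand setting, is not given in the sources used here. Symbols, positions and exon lengths came from GENCODE M21 on GRCm38 and promoter windows from RefSeq on GRCm38.p6. Differences were tested by edgeR 4.0.16 under R 4.3.3 (quasi-likelihood F test, TMM factors, filterByExpr by genotype, robust dispersions, all 9 libraries in 1 fit, Benjamini-Hochberg over 18844 genes, called at an adjusted p under 0.05). Standard errors were derived from the F statistic, log2 CPM used a prior count of 2, and TPM values were computed from counts and merged exon lengths. Correlations and their exact permutation tests were computed with numpy 2.4.6, with ranks from scipy 1.17.1. The test was checked on simulated counts with known folds, drawn with the means and dispersions of these data. The simulated libraries held no differences in tissue, so the check does not cover those. The labels name 3 brain tissues per genotype. If these were not separate embryos, p-values measure technical spread, and intervals and floors cover counting error and that spread only. No pair of libraries was a copy of another. The members and gene lists were chosen with earlier results of these data known. The genes named from a list are the 3 with the smallest unadjusted p and at least 1 CPM on average, and those printed here were picked from these. Alternatives were other size factors, other filters, DESeq2 1.42.0, limma-voom 3.58.1, 2 genotypes only, blocks for replicate number and letter, and leaving out libraries.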

Additional observations from a re-analysis of the deposited data

How the results depend on the processing

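In every setting run, 0 members were called in any comparison. The number of all genes called in KO against WT was 17 with DESeq2 and 0 with the replicate block, with the letter block or without Het 1 and KO 1 together, against 1 in the reported fit, and 0 to 1 when single libraries were left out. Het against WT gave 1 with DESeq2. KO against Het gave 26 with DESeq2 and 0 with limma-voom, the replicate block, the letter block, 2 genotypes only or without Het 1 and KO 1, and 0 to 1 without single libraries. For the letter DESeq2 called 177, and leaving out single libraries gave 1 to 14. Whether libraries of the same replicate number were paired was not decided. Same-number deviations correlated between -0.27 (Het 1 with KO 1) and 0.27 (Het 3 with KO 3), with 4 of 9 pairs over 0.1. The pairs of replicate 3, the libraries of letter F, stood at 0.08, 0.15 and 0.27, so number and letter cannot be told apart there. In KO against WT, Fos at -0.01 turned to 0.0325 with limma-voom, 0.000777 with the replicate block and 0.00538 with the letter block. Fosb in Het against WT turned to 0.99 with limma-voom and 0.27 with the replicate block. Without Het 1 and KO 1, KO against WT gave -0.12 for Junb, Het against WT 0.0366 for Jun, and KO against Het -0.31 for Jun, -0.0885 for Junb, -0.0864 for Arc and 0.0176 for Dusp1. Leaving out single libraries turned the sign within these ranges: in KO against WT Fos -0.24 to 0.26, Fosb -0.48 to 1.52 and Junb -0.14 to 0.46; in Het against WT Fosb -0.75 to 1.25, Jun -0.52 to 0.0367, Junb -0.42 to 0.17, Egr1 -0.59 to 0.0212 and Dusp1 -0.0916 to 0.0280. In KO against Het they were -0.23 to 0.34 for Jun and -0.25 to 0.25 for Arc, and for the letter -0.45 to 0.0798 for Fos, -0.18 to 1.19 for Fosb, -0.11 to 0.23 for Jun and -0.45 to 0.00165 for Atf3. The cause of these changes was not tested. The log2 fold change of Egr1 in KO against WT ran from 0.54 without KO 1 to 1.14 without WT 2, that of Arc from -0.87 to -0.40 and that of Atf3 from 0.16 to 0.54. Depth limits Fosb and Egr2 most, with at most 33 and 17 reads in a library.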
